A study of Mus musculus with 2 samples.

Results

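Distal intronic accessible regions are stretches of open chromatin that lie inside the introns of protein-coding genes, away from any promoter of such a gene. They were taken from the ATAC-seq peaks that both replicates of E11.5 mouse heart share. A shared region is a replicate 1 peak cut back to the part that a replicate 2 peak covers, with an overlap of at least 1 bp. A shared region counted as distal intronic when its midpoint was more than 10 kb from each protein-coding transcript start of GENCODE M21, lay within a protein-coding gene, and the region touched no exon of any gene. On the 19 autosomes, 25822 of 96639 shared regions (26.7%) met this rule. The samples were whole hearts of wildtype (genotype WT) FVB mouse embryos at E11.5, in 2 replicates that each pooled 2 hearts, with no treatment. Because both replicates form a single group, no test between groups was possible, and values are given for each replicate where they were computed for each. Regions are not replicates, and no p-value was computed over them.

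Introns hold much of the regulatory DNA of vertebrate genomes. Enhancers within introns bind transcription factors and can act on the promoter of the gene they lie in or on that of a neighbouring gene, so the gene around a region is a position and not a known target. ATAC-seq marks enhancers, but also silencers, CTCF-bound insulators and unannotated promoters, and does not tell these apart. In the embryonic heart, GATA, T-box, NKX2, MEF2, HAND, MEIS and TEAD factors act together at many enhancers of cardiomyocyte genes, while ETS factors act in endocardium and GATA factors also act in blood cells.

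The tissue label was checked at the promoters of marker genes. All 10 cardiomyocyte markers examined, including Nkx2-5, Tnnt2 and Myh6, had a shared region within 1 kb of a start, where replicate 1 gave a fold enrichment of 12.0 to 33.7 and replicate 2 of 9.30 to 36.7. All 5 endothelial and all 5 epicardial markers also had a promoter region, as did the blood genes Hbb-bs, Hba-a1 and Klf1 but not Ptprc. Endothelial values ran from 4.89 to 16.8 (replicate 1) and 3.77 to 16.1 (replicate 2), with Pecam1 lowest. Epicardial values ran from 7.06 to 24.2 and 7.04 to 22.4. Of 6 markers of other tissues, Neurod1 and Alb had none, and Myod1, Pax6, Cdx2 and Sox1 had one. Pax6 had 22.0 and 18.4, above Nkx2-5 (12.0 and 9.30) and Myh6 (13.9 and 12.8), and the others were lower, with 4.89 and 5.53 for Myod1, 3.803 and 4.78 for Cdx2 and 6.79 and 7.04 for Sox1. Replicate 1 had 118027 peaks and replicate 2 had 114783, and since peak lists carry no read totals the depth is unknown. Since whole hearts were used, more cells of a type and more accessibility per cell cannot be told apart.

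The sequences at the strongest distal intronic regions are shown first, to give the letters behind the highest values. Each sequence takes in the replicate 1 summit and 100 bp to each side of it, read 5′ to 3′ from the plus strand of the GRCm38 (mm10) reference genome, which is not the FVB strain used. The set holds the 3 highest members by mean fold enrichment, in Insr, Arid1b and Inpp5d, then the highest region of 4 lists of heart genes (Ldb3 of the sarcomere, Pde4d of calcium handling, Zeb2 of mesenchyme and Igf1r of signalling), and the highest region of a list of long neuronal genes (Rbfox1). Capitals mark matches, on either strand, to 10 short motifs. The motif of the GATA factors was taken as AGATAA, that of the TEAD factors as GGAATG and that of T-box factors as AGGTGT. For NKX2 factors it was TNAAGTG, for MEIS factors TGACAG, and for basic helix-loop-helix factors the E-box CAGCTG. For ETS factors it was ACAGGAA, for the AP-1 dimers of FOS and JUN it was TGANTCA, and longer motifs were used for MEF2 and CTCF. MEIS and E-box matches may overlap, as they do in Ldb3.
Insr (chr8:3221078-3221278, plus strand): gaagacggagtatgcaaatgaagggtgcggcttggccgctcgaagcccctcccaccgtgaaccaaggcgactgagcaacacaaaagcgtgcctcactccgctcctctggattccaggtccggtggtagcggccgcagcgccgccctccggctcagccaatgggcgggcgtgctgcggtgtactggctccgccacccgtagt
Arid1b (chr17:5189801-5190001, plus strand): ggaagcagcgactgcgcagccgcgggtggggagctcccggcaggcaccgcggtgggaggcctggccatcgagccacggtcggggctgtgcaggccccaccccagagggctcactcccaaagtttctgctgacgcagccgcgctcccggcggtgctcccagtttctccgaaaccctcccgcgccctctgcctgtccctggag
Inpp5d (chr1:87637625-87637825, plus strand): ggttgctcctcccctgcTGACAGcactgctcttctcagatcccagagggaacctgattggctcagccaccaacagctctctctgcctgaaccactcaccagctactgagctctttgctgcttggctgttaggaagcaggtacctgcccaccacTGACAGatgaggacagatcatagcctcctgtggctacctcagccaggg
Ldb3 (chr14:34574123-34574323, plus strand): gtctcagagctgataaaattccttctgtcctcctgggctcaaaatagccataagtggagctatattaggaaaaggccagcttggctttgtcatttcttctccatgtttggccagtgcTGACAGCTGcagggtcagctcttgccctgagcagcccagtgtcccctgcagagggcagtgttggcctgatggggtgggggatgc
Pde4d (chr13:109822359-109822559, plus strand): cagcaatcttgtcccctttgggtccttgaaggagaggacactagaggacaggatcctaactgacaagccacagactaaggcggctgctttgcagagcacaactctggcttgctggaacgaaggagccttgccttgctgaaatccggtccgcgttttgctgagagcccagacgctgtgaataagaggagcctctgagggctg
Zeb2 (chr2:45049377-45049577, plus strand): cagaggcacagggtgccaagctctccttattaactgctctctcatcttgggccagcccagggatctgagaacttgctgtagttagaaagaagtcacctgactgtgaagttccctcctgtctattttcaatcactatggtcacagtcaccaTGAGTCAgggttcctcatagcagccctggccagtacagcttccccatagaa
Igf1r (chr7:68129175-68129375, plus strand): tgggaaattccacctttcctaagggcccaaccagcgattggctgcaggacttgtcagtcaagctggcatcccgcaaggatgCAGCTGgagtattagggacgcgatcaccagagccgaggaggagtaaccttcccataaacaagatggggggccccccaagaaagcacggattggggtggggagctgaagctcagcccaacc
Rbfox1 (chr16:6096067-6096267, plus strand): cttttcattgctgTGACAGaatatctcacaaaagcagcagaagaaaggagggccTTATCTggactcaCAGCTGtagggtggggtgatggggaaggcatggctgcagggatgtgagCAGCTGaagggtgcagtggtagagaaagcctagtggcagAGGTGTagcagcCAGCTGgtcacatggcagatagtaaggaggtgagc

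Of these 8 sequences, 3 held none of the 10 motifs. The Insr and Arid1b sequences had a GC content of 65.7% and 72.1%. The Rbfox1 sequence held 6 matches, a GATA, a T-box, a MEIS and 3 E-box matches, and the Inpp5d sequence held 2 MEIS matches. Each match is a description of the letters and not a binding site.

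A second set of sequences was chosen after the values were seen, to show what the motif counts below refer to. It holds, for GATA, TEAD, MEF2 and CTCF, the heart-list region with the highest mean fold enrichment that has the motif within 50 bp of the replicate 1 summit, and the highest region of Nprl3. Each takes in 50 bp to each side of the summit, with the same marks.
Zfpm1 (chr8:122294384-122294484, plus strand): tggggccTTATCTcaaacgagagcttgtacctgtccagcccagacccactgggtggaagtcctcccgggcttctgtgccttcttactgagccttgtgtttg
Jph2, TEAD match (chr2:163353952-163354052, plus strand): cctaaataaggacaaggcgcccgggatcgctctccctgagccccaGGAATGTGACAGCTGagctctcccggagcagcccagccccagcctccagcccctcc
Jph2, MEF2 match (chr2:163356373-163356473, plus strand): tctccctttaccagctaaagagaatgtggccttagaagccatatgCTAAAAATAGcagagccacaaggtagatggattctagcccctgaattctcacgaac
Pde4d, CTCF match (chr13:109776205-109776305, plus strand): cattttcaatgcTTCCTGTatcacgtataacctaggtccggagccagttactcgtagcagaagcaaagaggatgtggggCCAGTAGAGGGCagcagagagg
Nprl3 (chr11:32251056-32251156, plus strand): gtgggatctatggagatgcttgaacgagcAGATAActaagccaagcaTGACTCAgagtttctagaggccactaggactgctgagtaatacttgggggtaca

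The Zfpm1 sequence has a GATA match on its minus strand, and the first Jph2 sequence has a TEAD, a MEIS and an E-box match in an uninterrupted run. In Nprl3, a GATA and an AP-1 match lie close together.

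Distal introns were somewhat denser in accessible regions than the intergenic space 10 to 100 kb from a start. The bases that could hold such a region, called eligible here, came to 657 Mb of intron, and they held 39.3 regions per Mb. Intergenic space 10 to 100 kb from a start held 35.0 per Mb, and intergenic space beyond 100 kb held 17.3 per Mb. The ratio of introns to the nearer intergenic space was 1.12 for shared regions, 1.16 for all peaks of replicate 1 and 1.14 for those of replicate 2. With a q-value limit of 1e-10 in both replicates, which left 9204 distal intronic regions, this ratio turned to 0.974. Part of the intron lies beyond 100 kb from a start, so introns at 10 to 100 kb were also taken alone, a choice made after the values were seen. They held 20500 regions, or 43.4 per Mb, a ratio of 1.24, with 1.28 and 1.25 in the peaks of replicate 1 and replicate 2. At the q-value limit of 1e-10 this ratio was 1.08, so it stayed above 1 where that of all distal introns did not. The ratio to the far intergenic space was 2.27, and 2.27 and 2.22 in the peaks of either replicate. Together the regions covered 10.5 Mb, 1.59% of the eligible intron.

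The regions were short and of moderate height. Fold enrichment, the value the authors' peak caller gave at each summit, divides the read pileup at the summit by the background of the whole genome, after 1 is added to each. Its median over distal intronic regions was 5.98 in replicate 1 and 5.03 in replicate 2. In intergenic regions 10 to 100 kb out it was 6.25 and 5.53, and at promoters, within 1 kb of a start, it was 19.6 and 19.9. The ratio of the intronic to the nearer intergenic median, for the mean of both replicates, was 0.946. A fold enrichment of at least 10 in both replicates was reached by 2568 distal intronic regions (9.95%), against 14.3% of the nearer intergenic regions and 66.8% of promoter regions. The median length was 339.5 bp, with quartiles of 239 and 485 bp, and the range ran from 1 to 4341 bp. Promoter regions had a median of 1136 bp.

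**Figure D1:**
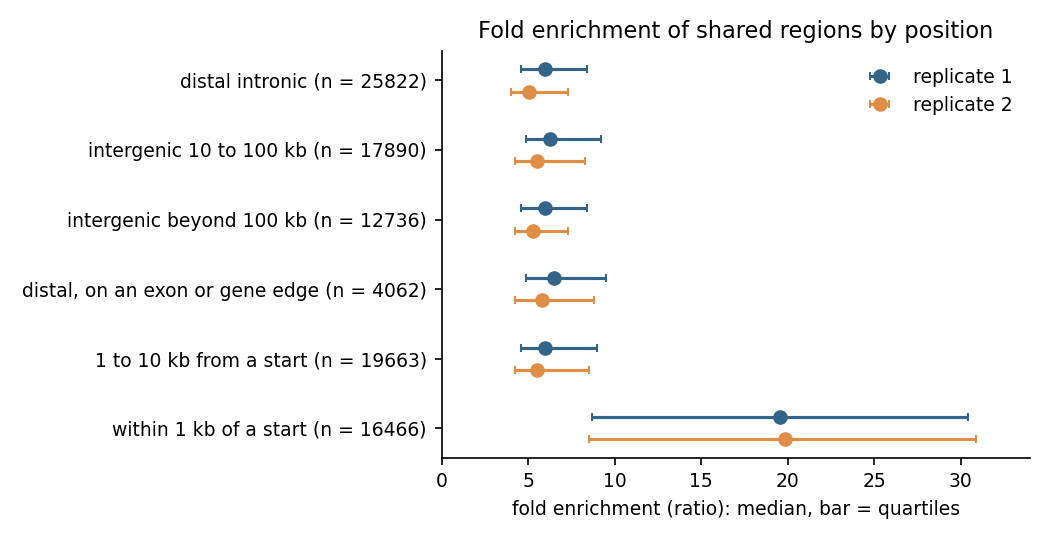
Fold enrichment (ratio, horizontal axis) of autosomal shared regions by position, for both replicates: points are medians over regions and bars span the quartiles. Distal intronic regions have medians of 5.98 and 5.03, next to the other classes away from promoters, while regions within 1 kb of a start have medians of 19.6 and 19.9.

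The replicates placed most of these regions at the same site but, as in the other classes away from promoters, ranked them less alike than promoters. Of 32475 distal intronic peaks in replicate 1, 76.2% overlapped a replicate 2 peak, and of 30792 in replicate 2, 80.6% overlapped a replicate 1 peak. At promoters these shares were 94.6% and 94.3%, and in intergenic regions 10 to 100 kb out 79.9% and 82.4%. They were 77.7% and 80.3% beyond 100 kb, and 80.5% and 79.6% at 1 to 10 kb from a start. The intronic peaks found in a single replicate were low, at a median fold enrichment of 4.07 (replicate 1) and 3.52 (replicate 2), and none exceeded 8.42 in replicate 1 or 10.6 in replicate 2. Across the members, which are not independent, Spearman's rho between the fold enrichments of both replicates was 0.710, against 0.878 across promoter regions. It was 0.750 and 0.749 across the nearer and far intergenic regions, 0.642 at 1 to 10 kb from a start and 0.770 across all shared regions. The summits of both replicates lay 51 bp apart at the median. In 1973 regions (7.64%) the replicate 1 summit fell outside the shared interval, so its fold enrichment describes a summit beside the region. Further, 1524 regions share their replicate 1 peak, and so its value, with another region, and 1 of the fragments can hold the summit. Regions can also share a replicate 2 peak, and each fragment is counted as a region.

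The regions at the limit of 10 kb were compared on both sides of it. The 395 distal intronic regions with a midpoint from 10004 to 10500 bp from a start had medians of 6.25 and 5.53. The 352 intronic regions just outside the limit, from 9501 to 10000 bp, had medians of 5.70 and 5.28, lower in both replicates.

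Sequence at the summits was richer in G and C than the introns around it, and poor in CpG. In the window of 100 bp to each side of the replicate 1 summit, GC content averaged 49.3%, against 44.2% in windows 1 kb to each side and 42.04% in the eligible intron as a whole. Promoter summits averaged 63.9%. The CpG content relative to that of random order averaged 0.224 at distal intronic summits and 0.704 at promoters. In intergenic regions 10 to 100 kb out and beyond 100 kb, it averaged 0.272 and 0.216, and GC content 50.6% and 47.5%. Bases masked as repeats made up 9.85% of the distal intronic summit windows, 22.1% of the windows beside them and 28.9% of the eligible intron, and poorly mapped reads had been dropped before peak calling. In the same intergenic classes the share was 10.5% and 11.8% at summits, against 27.2% and 24.5% beside them. Along the deciles of mean fold enrichment of the distal intronic regions, GC content went from 48.5% to 51.2% and the median length from 200 to 728 bp.

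Density fell with distance from the gene starts. It was 45.5 regions per Mb of eligible intron at 10 to 20 kb from the nearest start, 43.9 at 20 to 50 kb, 40.3 at 50 to 100 kb, 35.1 at 100 to 200 kb, 22.6 at 200 to 500 kb and 15.05 beyond 500 kb. The peaks of each replicate alone gave the same order, falling from 55.9 to 20.2 per Mb (replicate 1) and from 54.3 to 19.1 (replicate 2). Median fold enrichment varied little: it was 5.98 in replicate 1 in each bin except 200 to 500 kb, where it was 5.70, and in replicate 2 it was 5.28 up to 50 kb and 5.03 in each bin beyond. The farthest bin held 205 members. The median distance of a member from a start was 39.7 kb, and the farthest lay 1570 kb away.

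**Figure D2:**
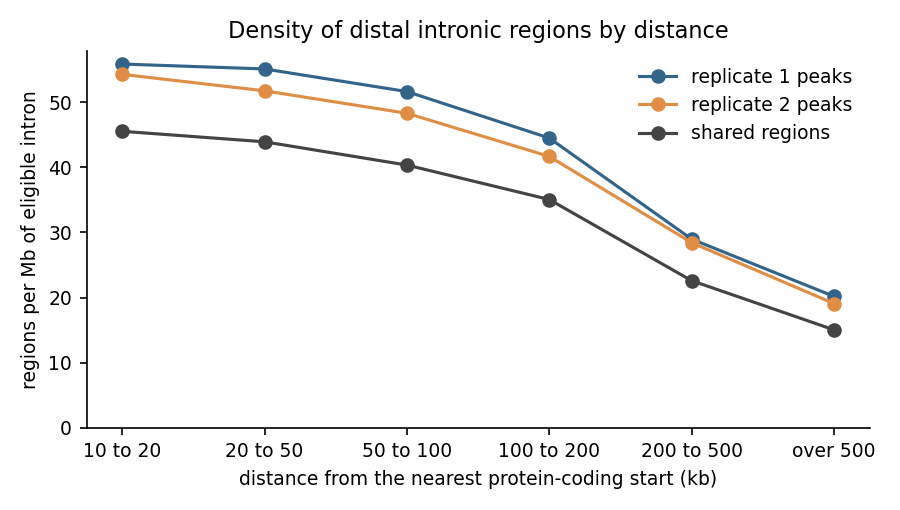
Distal intronic regions per Mb of eligible intron (vertical axis) in bins of distance from the nearest protein-coding start (horizontal axis, kb, bins of unequal width), for shared regions and for the peaks of each replicate. Shared regions fall from 45.5 per Mb at 10 to 20 kb to 15.05 per Mb beyond 500 kb, and both replicates fall in the same order.

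Early introns were denser than later ones. In the longest transcript of the host gene, the first intron held 25.3% of the members placed and 20.9% of the eligible bases. Density was 48.1 per Mb in the first intron, 46.4 in the second intron, 42.5 in the next and 33.6 in intron 4 and later. The order was the same in both replicates, with 60.7 against 42.2 per Mb for the first and the late introns in replicate 1 and 57.4 against 40.2 in replicate 2. The share of the first intron depended on the distance limit, which removes bases near starts, and was 28.4% at 5 kb and 21.2% at 20 kb. Its share of eligible bases is given for the 10 kb limit only. The part of distance from a start in the order of introns was not tested. Median fold enrichment was 5.98 in replicate 1 in each of these intron groups, while in replicate 2 it was 5.28 in the first 3 introns and 5.03 in intron 4 and later.

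Members lay near one another. The median distance to the nearest other member was 4.62 kb, and 51.8% had a neighbour within 5 kb. Fragments that share a peak are separate members, and the distance that density alone would give is not given. They occupied 11484 introns, of which 6880 held 1 member and 1170 held 5 or more, and these fuller introns contained 37.9% of all members. Several introns held more than 30 members each. Intron 2 of Nav2 (neuron navigator 2) held 35 regions, intron 1 of Ext1, which encodes a heparan sulfate polymerase, held 34, intron 3 of Pde4d held 33, intron 1 of Cmss1 and intron 8 of Wwox held 32 each, and intron 1 of Efna5, which encodes an ephrin, held 31.

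A minority of genes carried most of the members. Of 10877 genes with eligible intron, 5059 (46.5%) hosted at least 1 region, with a median of 3 per host. The 759 genes with 10 or more held 52.7% of the members, and 546 members lay in more than 1 gene. The number of members followed the length of eligible intron, with a Spearman rho of 0.695 across genes, which share libraries. The highest counts belonged to gene models of unusual length: Gm20388 (186 members over a body of 4435 kb) and Gm37240 (49) are read-through models, and the annotated body of Fgfr2, an FGF receptor, spans 2961 kb and held 81 members. With gene bodies limited to CCDS transcripts, the curated coding set, Fgfr2 had 1 member, and of all members 93.0% remained.

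Of the other genes with the most members, Nav2 held 76 members, the teneurin genes Tenm4 and Tenm2 held 60 and 49, and the receptor phosphatase genes Ptprd and Ptprg held 55 and 53. Arid1b, a subunit gene of the BAF chromatin remodelling complex, held 54 in 329 kb, or 16.4 per 100 kb. Auts2 held 53, Cdkal1 51, Macrod2 50, Gse1 48 and Etv6, which encodes an ETS repressor, 50 in 211 kb. Some of these counts also depended on the gene model. With CCDS bodies Ptprd held 29 in 532 kb, Gse1 15 and Cdkal1 42, Auts2 had no eligible intron, and Nav2 held 72, while Tenm4, Tenm2, Ptprg, Arid1b, Macrod2 and Etv6 kept their counts.

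Ranked by density, the genes at the top were of moderate length. Among genes with at least 50 kb of eligible intron, Frs2, the adaptor of FGF receptors, had 33.1 members per 100 kb, from 20 members. Grb10, an imprinted inhibitor of growth factor signalling, had 32.7 per 100 kb. Its neighbour Ddc, the gene of dopa decarboxylase, had 27.7, and its members reached 21.7 (replicate 1) and 18.6 (replicate 2). Yap1, the Hippo pathway coactivator that binds TEAD factors, had 28.7. The replicates alone had 19 and 19 intronic peaks in Grb10, 22 and 20 in Frs2, 18 and 15 in Yap1 and 18 and 14 in Ddc. They were further apart in Stk24 (25 and 32), Pawr (25 and 18) and Fat1 (24 and 19). Ccdc85c (29.2), Stk24 (27.3), Pawr (27.0), Mbp (26.2), the atypical cadherin gene Fat1 (26.2) and Gipc2 (25.8) completed the 10 densest.

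At the other end, 5818 genes with eligible intron hosted no member. Those with the most intron were Skint5 with 507 kb, Skint6 with 463 kb, Klhl1 with 400.1 kb, Hydin with 314 kb and Nxph1 with 287 kb. Skint genes act in skin and thymus, Klhl1 and Nxph1 in neurons, and Hydin in motile cilia. Each replicate alone had at most 2 peaks in them: Hydin had 1 in replicate 1 and Nxph1 had 2 in replicate 2.

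Genes with an accessible promoter had denser introns. The 8752 genes with a shared region within 1 kb of a start had 4.17 members per 100 kb of eligible intron, and the 2125 genes without had 2.08. In replicate 1 the values were 5.23 and 2.64, and in replicate 2 they were 4.97 and 2.46. The same order was found in each bin of intron length, with 5.27 against 2.11 per 100 kb for genes with 100 to 200 kb of eligible intron, and 3.31 against 2.15 for genes with 200 kb or more. Among the latter, 98.8% of genes with and 93.0% of genes without an accessible promoter hosted a member.

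Gene lists of the heart were denser in intronic regions than long neuronal genes. Cardiac transcription factors and cofactors stood highest with 8.51 members per 100 kb, where all genes with eligible intron had 3.94. Epicardium and cushion mesenchyme genes had 6.33, sarcomere and Z-disc genes 6.67, endocardium and endothelium genes 5.32, signalling receptors and ligands 5.06, and excitation and calcium handling genes 4.39. Long neuronal genes had 1.65, although each of the 36 hosted at least 1 member, 678 in all. The 6 heart lists together had 5.49, a ratio of 3.33 to the neuronal list, and 3.37 in the peaks of replicate 1 and 3.09 in those of replicate 2. Blood cell genes had 5.54 and epithelial and liver genes 2.68. The genes with the most members were, in the neuronal list, Ptprd (55), Dlg2 (46), Nrxn3 (44) and Rbfox1 (44, or 28 with CCDS bodies), and in the epithelial and liver list Cubn (13), Glis3 (13), Myo5b (9) and Lrp2 (5).

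These densities pool the bases of a list, so long genes weigh most. The median per gene, over genes with at least 20 kb of eligible intron, was 8.08 for cardiac transcription factors, 7.199 for endocardium, 6.10 for signalling, 4.61 for excitation and calcium handling and 3.57 for epicardium and mesenchyme, against 3.01 for all genes. For sarcomere genes it was 2.54, so their order against all genes turned, and Palld and Fhod3 held 43 and 32 of the 131 sarcomere members. The median was 4.10 for blood cell genes, 1.46 for epithelial and liver genes and 1.37 for long neuronal genes, which stayed lowest.

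**Figure D3:**
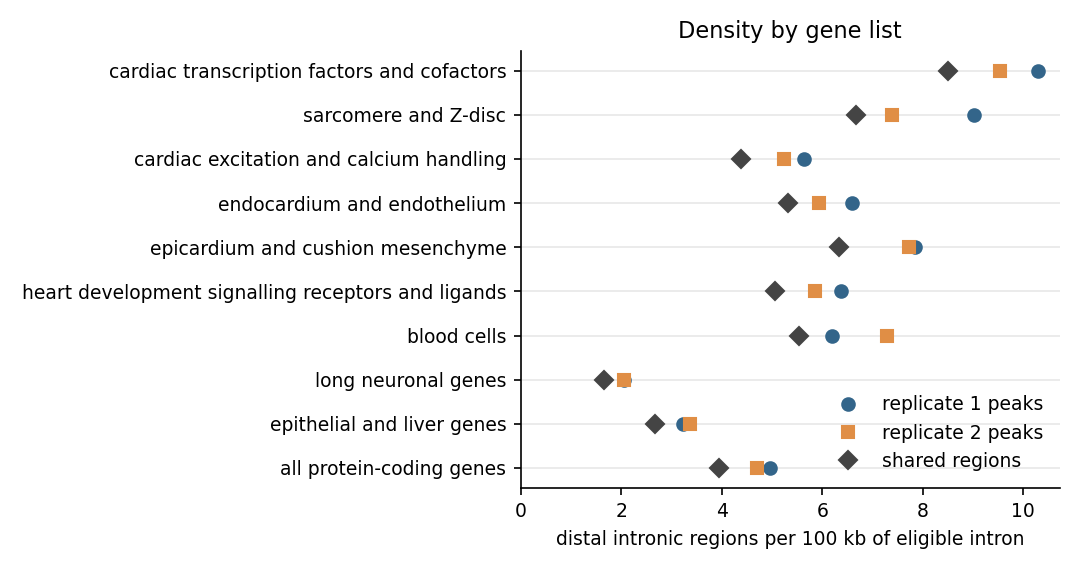
Distal intronic regions per 100 kb of eligible intron (horizontal axis) for 9 gene lists and all genes: diamonds are shared regions, circles and squares the peaks of replicate 1 and replicate 2. Long neuronal genes are lowest with 1.65 for shared regions and cardiac transcription factors and cofactors highest with 8.51.

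Gene length moved with this difference. The neuronal genes averaged 1144 kb of eligible intron. Among genes with at least 200 kb of eligible intron, a limit chosen after the values were seen, the heart lists had 4.43 members per 100 kb over 33 genes, the neuronal list 1.65 over 36 and all 729 such genes 3.23, against 3.94 for genes of any length. Blood cell genes of this length had 4.16 over 4 genes, and epithelial and liver genes 3.25 over 2, so the heart lists were not alone above the neuronal one. Within the heart lists, the 2 endocardium genes of this length had 3.29. The ratio of heart to neuronal genes was then 2.69, with 2.80 and 2.54 in the replicates. How much of the remaining difference goes with length was not tested.

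Cardiac transcription factor genes differed widely from one another. The forkhead gene Foxp1 held 37 members, the retinoic acid receptor gene Rarb 30, and the homeodomain gene Meis2 26. Zfpm1, which encodes the GATA cofactor FOG-1, held 23. Some neighbours among them have equal replicate 2 values, such as 28.4 in chr8:122308986-122310368 and chr8:122310608-122310983, and can be fragments that share a peak. With CCDS bodies Rarb held 13, in 128 kb in place of 351 kb, and the other 3 kept their counts. In contrast, Tbx3, Tbx18, Tbx20, Mef2a and Mef2d hosted none in the eligible intron they have. Replicate 1 alone had 4 intronic peaks in Tbx20 and 1 in Tbx18, and replicate 2 had 0 in each. In all, 20 of the 25 list genes with eligible intron hosted at least 1. Compact genes such as Hand1, Hand2, Isl1 and Gata5 have no base that meets the rule, so they could hold no member.

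Sarcomere genes were divided in the same way. Palld (palladin) held 43, the formin gene Fhod3 32, Actn2 (alpha-actinin of the Z-disc) 10 in 39.5 kb and Ldb3, another Z-disc gene, 9 in 43.1 kb. The compact genes Myh6, Tnnt2, Tpm1 and Mybpc3 hosted none, but Myh6 had only 1.99 kb of eligible intron and Mybpc3 6.17 kb. Myom2, with 56.8 kb, and Mylk3, with 28.1 kb, also hosted none. The Actn2 regions had fold enrichments of 4.62 to 12.0 (replicate 1) and 3.77 to 10.1 (replicate 2). The strongest Ldb3 region (chr14:34573284-34574639) had 26.1 and 21.9.

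Jph2 was the densest of the excitation and calcium handling genes named here, with 19 regions in 48.3 kb, or 39.3 per 100 kb. It falls just under the 50 kb of eligible intron that the density ranking asked for, and was singled out after its values were seen. Jph2 encodes junctophilin 2, which holds the sarcoplasmic reticulum close to the plasma membrane. Its regions had fold enrichments of 3.26 to 25.5 (replicate 1) and 3.02 to 26.9 (replicate 2), and the highest 2 were the neighbours shown above with a TEAD and a MEF2 match. In the same list, the phosphodiesterase gene Pde4d held 48, Ctnna3 35, the kinase gene Camk2d 30 and the ryanodine receptor gene Ryr2 26. The strongest Ryr2 region had 23.1 and 23.4 and lay 177 kb from the nearest start.

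Endocardial and mesenchymal genes also held strong members. Nrg1, whose product signals from endocardium to myocardium, held 26, Mecom 23, Nfatc1 15 and the VEGF receptor gene Flt1 11. With CCDS bodies, Nrg1 held 3 and Mecom 1, and the endocardium and endothelium list held 84 members in place of 137, or 7.37 per 100 kb, while Nfatc1 and Flt1 kept their counts. The highest Flt1 region had 21.7 and 19.4, with a GATA and an ETS match, and the highest region of Tek, the angiopoietin receptor gene, had 18.7 and 19.1. Zeb2, a repressor active in cushion mesenchyme, held 21 in 86.6 kb. Pdgfrb held 7, Tcf4 10 and Ptn 4. Among signalling genes, Gpc6 held 38, Igf1r 32 and Erbb4, the receptor for neuregulin, 18.

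Inpp5d was the gene of the blood cell list among the 10 strongest regions. Its region (chr1:87637183-87638475) had 40.7 in replicate 1 and 41.0 in replicate 2, and the gene encodes a phosphatase of blood cells. A second, smaller Inpp5d fragment shares its replicate 2 peak, so its replicate 2 value of 41.0 belongs to the same summit. The highest region of Ikzf1, which encodes a zinc finger factor of lymphoid development, had 22.8 and 28.7. Sptb, the erythrocyte spectrin gene, held 27 in 108 kb, and Vav3, Arhgap15 and Dock2 held 21, 19 and 15. Nprl3, which is not in the list, held 7 members, 2 of them high, with 35.0 and 38.2 (chr11:32250408-32252141) and with 29.1 and 32.7 (chr11:32244775-32246128). The introns of Nprl3 are known to hold enhancers of the neighbouring alpha-globin genes. The remaining 5 stayed between 4.62 and 8.96 in replicate 1. A GATA match was in both high Nprl3 regions and in 3 of the remaining 5, where 20.6% of all members held one. The blood promoters of Hbb-bs, Hba-a1 and Klf1 were accessible at 17.4 to 24.4 in replicate 1 and 13.6 to 27.7 in replicate 2, and the part of blood cells in these values was not tested.

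**Figure D4:**
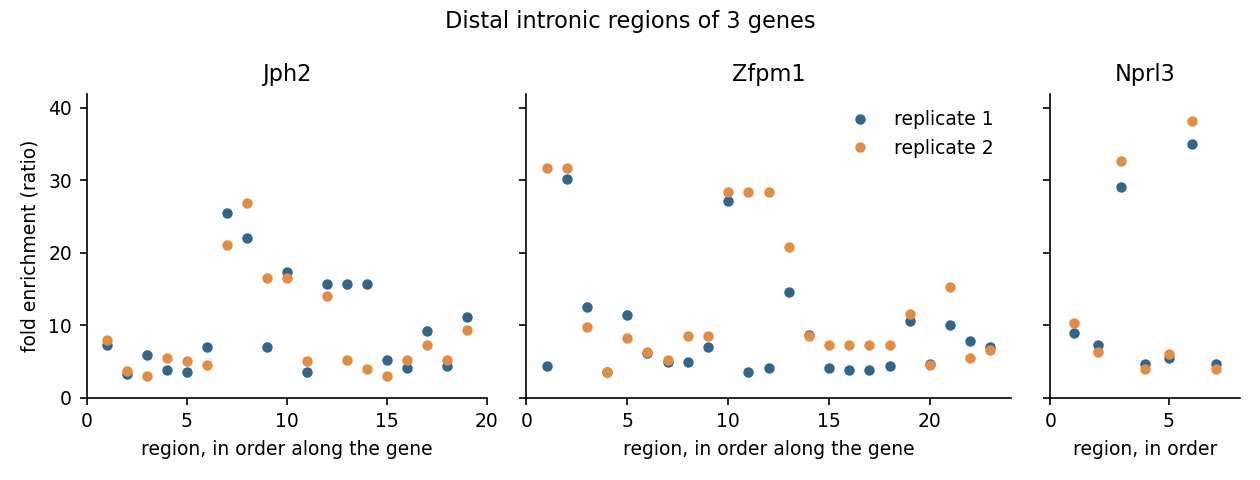
Fold enrichment (ratio, vertical axis) of each distal intronic region of Jph2, Zfpm1 and Nprl3 in both replicates, in order along the chromosome (horizontal axis). In Nprl3, 2 of the 7 regions stand at 29.1 to 38.2 and the others at or below 10.3. Equal values in neighbouring regions can be fragments that share a peak.

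The strongest members were high in both replicates. The highest was in intron 2 of Insr, the insulin receptor gene (chr8:3220241-3222083), with 50.8 in replicate 1 and 46.8 in replicate 2 and summits at the same base. It was followed by intron 4 of Arid1b with 44.8 and 40.0, Inpp5d, and Foxk1, a forkhead gene, with 40.7 and 41.0. Itpkb had 37.2 and 41.0, Gse1 38.6 and 39.5, Cdkl1 38.0 and 38.0, the predicted gene Gm17655 34.2 and 40.0, and Nprl3 closed the list. The summits of these 9 regions lay at most 50 bp apart between replicates, and their GC content at the summit ranged from 49.8% to 72.1%. The Nprl3 region lies within 1 kb of an annotated non-coding transcript start, as do 726 members (2.81%).

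Rsrc1, the neighbour of Shox2 in its TAD (topologically associating domain), was sparse. Its 355 kb of eligible intron held 2 members, or 0.564 per 100 kb, and 4 and 3 peaks in the replicates. The region chr3:67134718-67135029 had 10.1 and 7.29, with a GATA, an NKX2 and an AP-1 match, and the region chr3:67311562-67311668 had 3.26 and 3.52.

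Motif matches at the summits were compared with windows of the same length 1 kb to each side. GATA was present in 5327 members (20.6%), against 12.0% of the flanking windows, a ratio of 1.72, and in 17.2% of all shared regions. Intergenic regions had similar GATA ratios: 1.69 at 10 to 100 kb out, with a share of 19.3%, and 1.70 beyond 100 kb, with 23.3%. TEAD was present in 17.0% and 11.1%, a ratio of 1.53, against 14.7% of all shared regions. The TEAD ratio was 1.49 in the nearer and 1.58 in the far intergenic regions, with shares of 15.7% and 18.3%. The T-box word was rarer at summits than beside them, with 9.09% and 10.9%, a ratio of 0.832, and was in 8.59% of all shared regions. In the peaks of each replicate alone, the GATA ratio was 1.65 and 1.64, the TEAD ratio 1.53 and 1.51, and the T-box ratio 0.833 and 0.839. A longer T-box word, AGGTGTGA, tried after the data were seen, turned the direction, with 1.03% of members and 0.877% of flanks, a ratio of 1.17. At the replicate 2 summit the shares were 1.02% and 0.947%, a ratio of 1.08, so the T-box result depends on the letters chosen.

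Other motifs of heart and muscle factors exceeded their flanks to different degrees. MEF2 was in 2.25% of members and 0.478% of flanks, a ratio of 4.70, and in 1.68% of all shared regions. In the peaks of each replicate alone the MEF2 ratio was 4.46 and 4.28, that of the E-box CAGCTG 1.98 and 1.98, that of MEIS 1.75 and 1.71 and that of NKX2 1.22 and 1.18. The E-box CAGCTG was in 19.03% and 9.41%, a ratio of 2.02, and in 17.8% of all shared regions. The E-box CATCTG had a ratio of 1.13 and was in 17.9% of members and 15.7% of all shared regions. MEIS was in 25.5% and 14.3%, a ratio of 1.78, and in 21.4% of all shared regions. NKX2 was in 13.9% of members with a ratio of 1.22, against 11.6% of all shared regions, and the CArG box of serum response factor was in 1.38% with a ratio of 1.29, against 1.22%. In nearer and far intergenic regions, the MEF2 ratio was 4.67 and 4.15 and that of the E-box CAGCTG 2.12 and 2.51. There the MEIS ratio was 1.66 and 2.00 and the NKX2 ratio 1.14 and 1.33, so these excesses were not particular to introns.

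Motifs of more widely acting factors also differed. ETS was in 10.2% of members with a ratio of 1.66, and in 8.73% of all shared regions. AP-1 was in 9.65% with a ratio of 1.57, and in 8.42% of all. In the replicates alone, the ETS ratio was 1.66 in each and the AP-1 ratio 1.54 and 1.49. In nearer and far intergenic regions the ETS ratio was 1.61 and 1.72 and the AP-1 ratio 1.62 and 1.53. The forkhead word TGTTTAC and the SOX word ACAATGG had ratios of 0.970 and 0.892 and were in 2.87% and 2.65% of members and in 2.58% and 2.43% of all shared regions. The SP and KLF word CCGCCC was in 5.38% of members and 51.9% of promoter summits, and in 15.4% of all shared regions. The nuclear receptor word AGGTCA was in 15.7% of members with a ratio of 1.28, and in 13.7% of all. The NFI motif was in 25 members, too few for a ratio to be read.

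CTCF stood apart from the other motifs. Its motif was in 512 members (1.98%) and 0.105% of flanks, a ratio of 18.96, and in 2.44% of all shared regions. In intergenic regions 10 to 100 kb out the share was 3.95%, and beyond 100 kb it was 1.54%. The peaks of each replicate alone gave 1.80% in introns and 3.47% in the nearer intergenic space for replicate 1, and 2.06% and 3.91% for replicate 2. The share in members went from 1.39% in the lowest decile of mean fold enrichment through 2.71% in decile 7 to 0.852% in the highest. Around the summit, the 20 bp bins centred 30 bp to each side held 3.56 and 4.72 matches per 1000 members, while the bins centred 10 bp to each side held 1.01 and 0.736.

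GATA matches were more frequent in the higher regions, and CTCF matches were least frequent in the highest. GATA was in 17.2% of members of the lowest decile and 28.7% of the highest. The E-box CAGCTG went from 16.5% to 23.4%, MEIS from 22.5% to 28.6% and AP-1 from 8.98% to 11.4%. TEAD was in 15.8% and 17.3%, and the T-box word in 9.02% and 9.41%. Within 50 bp of the summit, GATA matches were 1.95 times as frequent as beyond 700 bp, TEAD 1.64 times, AP-1 1.67 times and MEF2 5.47 times, and the T-box word 0.810 times. GC content, which was 49.3% at summits and 44.2% beside them, moved with these ratios, and its part in them was not tested.

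**Figure D5:**
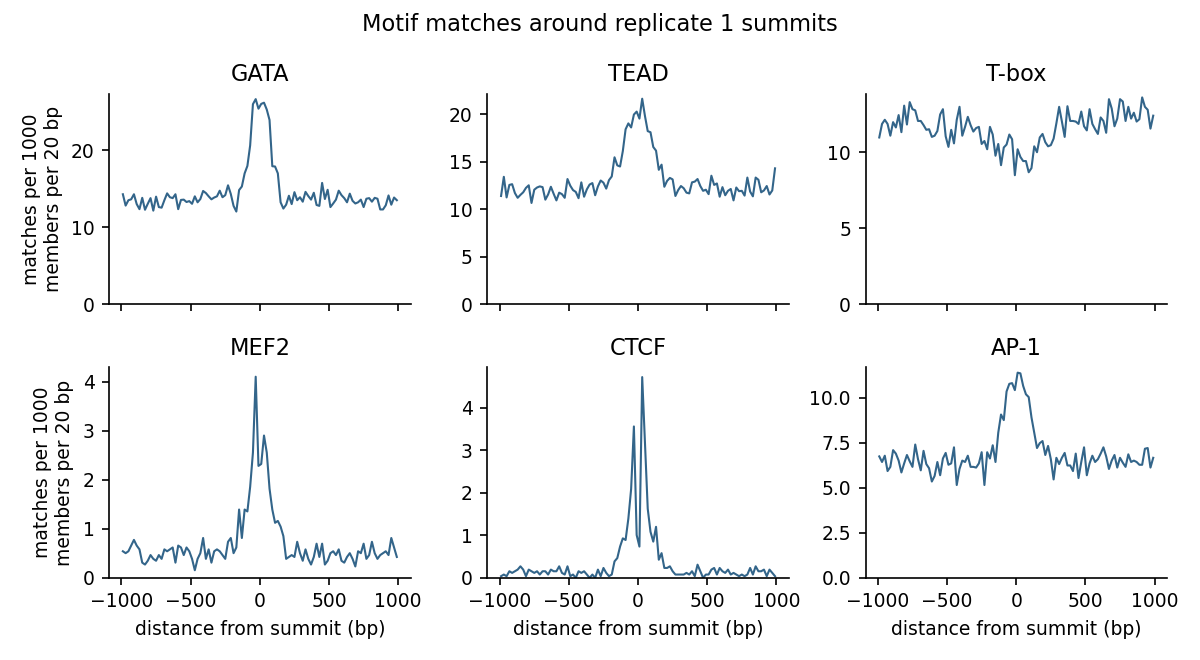
Matches per 1000 members in 20 bp bins (vertical axis) by distance from the replicate 1 summit (horizontal axis, bp) for 6 motifs. GATA, TEAD, MEF2 and AP-1 peak at the summit, the T-box word AGGTGT dips there, and CTCF has maxima to each side of the centre, at 3.56 and 4.72 per 1000.

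Combinations of heart motifs were counted next. Of GATA, T-box, TEAD, MEF2 and NKX2, 12851 members (49.8%) held none, 10022 (38.8%) held 1 and 2666 (10.3%) held 2. A set of 3 or more of the 5 was held by 283 members (1.10%), against 0.529% of the flanking windows, 0.944% of all shared regions, 0.984% of the nearer and 1.56% of the far intergenic regions. The motif content of the members of heart genes and of long neuronal genes overlapped: GATA was in 21.3% of the 267 regions of cardiac transcription factor genes, in 16.03% of the 131 of sarcomere genes and in 25.1% of the 678 of long neuronal genes. NKX2 was in 20.6% of the sarcomere regions and 14.7% of the neuronal ones, against 13.9% of all members. MEF2 was in 1 of the 131 sarcomere regions (0.763%), in 3.75% of the cardiac transcription factor regions, in 4.56% of the 351 excitation and calcium handling regions and in 2.65% of the neuronal ones, against 2.25% of all members.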

How the data were processed

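ATAC-seq peaks of 2 replicates of a single group, wildtype E11.5 heart, were analysed. According to the methods and the submitters' processing notes, the authors used Trim Galore 0.6.6 and Cutadapt to trim single-end reads, Bowtie2 2.4.2 to align them to GRCm38/mm10, SAMtools 1.12 to drop duplicates and poorly mapped reads, and MACS2, with a genome-wide background, to call peaks per replicate. The deposited peak lists give a fold enrichment, which is a ratio, a −log10 p-value and −log10 q-value, and a score, which the authors' caller derived from the q-value. Without a local background, broad open or amplified stretches can give peaks, and removal of multiply mapped reads lowers the yield in repeats. The lists stop at a −log10 p-value of 3.32 and 2.98 and a −log10 q-value of 1.71 and 1.37, which is stricter than the p-value threshold in the methods, and all their peaks were used. No read totals are given, so no counting interval was computed.

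Peaks were intersected, classed against GENCODE M21 and read against the GRCm38 reference in Python 3.11.15 with NumPy 2.4.6, pandas 2.3.3 and SciPy 1.17.1, and plots were drawn with Matplotlib 3.10.9. Densities are regions over eligible bases without assembly gaps, and a region in several genes counts for each. Motifs were searched on both strands in a window of 100 bp to each side of the replicate 1 summit and in windows 1 kb to each side. The members, gene lists and motifs were chosen with earlier results of these data known. Genes named are the 15 with the most members, the 10 densest with at least 50 kb of eligible intron, the 5 with the most intron and no member, the 4 with the most members of each list, Rsrc1, and the 10 strongest members, and the first set of sequences follows the same lists. Jph2, Zfpm1, Nprl3, Tek, Ikzf1, the genes of the fullest introns, list genes without a member, genes without eligible intron and the second set of sequences were chosen after their values were seen. A gene that the rule names, and the sequence of another region, are not reported here. The code was tested on simulated data. Alternatives were stricter limits, another overlap, each replicate alone, other distances, exon sets, windows and summits. CCDS gene bodies, the longer T-box word and introns within 100 kb of a start were added after the data were seen.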

Additional observations from a re-analysis of the deposited data

How the results depend on the processing

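No paired analysis was possible because both samples belong to a single group. A change was counted when a value moved by more than the SD of the values from each replicate alone, or a count by more than 1.5 times. With a q-value of at most 1e-10, the number of regions was 9204, the density ratio to the nearer intergenic space 0.974, GC content 50.1%, the first intron share 25.9%, the GATA ratio 1.97, the T-box ratio 0.781 and the TEAD ratio 1.62. With a reciprocal overlap of at least 50%, the density ratio to the nearer intergenic space was 1.10, GC content 49.3%, the first intron share 24.9%, the ratio of heart to neuronal lists 3.07, the GATA ratio 1.75 and the TEAD ratio 1.59. At more than 20 kb from a start, the density ratio to the nearer intergenic space was 1.09, GC content 49.0%, the first intron share 21.2%, the GATA ratio 1.69, the T-box ratio 0.844 and the TEAD ratio 1.55. With introns 10 to 100 kb from a start, the density ratio to the nearer intergenic space was 1.24. With introns 10 to 100 kb from a start with a q-value of at most 1e-10, the density ratio to the nearer intergenic space was 1.08. With a window of 50 bp to each side of the summit, GC content was 49.7%, the GATA ratio 1.92, the T-box ratio 0.842 and the TEAD ratio 1.61. With a window of 200 bp to each side of the summit, GC content was 48.5%, the GATA ratio 1.38, the T-box ratio 0.852 and the TEAD ratio 1.36. With the replicate 2 summit, GC content was 49.3%, the GATA ratio 1.69 and the T-box ratio 0.821. With gene bodies from CCDS transcripts, GC content was 49.3% and the first intron share 24.2%. At more than 5 kb from a start, the first intron share was 28.4%. With exons of protein-coding genes only, the first intron share was 25.4%. With a T-box word of 8 letters, the T-box ratio was 1.17. With the peaks of a single replicate, the number of regions ranged from 30792 to 32475, the density ratio to the nearer intergenic space from 1.14 to 1.16, the fold enrichment ratio from 0.900 to 0.950, GC content from 49.1% to 49.1%, the first intron share from 25.4% to 25.5%, the ratio of heart to neuronal lists from 3.09 to 3.37, the GATA ratio from 1.64 to 1.65, the T-box ratio from 0.833 to 0.839, the TEAD ratio from 1.51 to 1.53. The density ratio of all distal introns turned direction at the q-value limit of 1e-10, and the T-box ratio with the longer word, and the cause was not tested. The other ratios stayed on their side of 1 in each alternative run. The lists give no depth, so what it limits was not tested.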

Other observations

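Some strong members lay in genes outside the heart lists. Cubn, which encodes an endocytic receptor of kidney and yolk sac epithelium and had no accessible promoter here, held 13 members, and 3 of them were high in both replicates: 28.8 and 30.4, 23.9 and 27.4, and 26.3 and 21.4. Among long neuronal genes, the highest regions of Rbfox1, Nrxn3 and Ptprd had 30.2 and 33.2, 27.2 and 31.7, and 28.8 and 23.4. Each of these genes had an accessible promoter. Among the heart lists, the highest regions of Pde4d, Igf1r and Ldb3 had 34.2 and 33.2, 32.3 and 31.9, and 26.1 and 21.9. Whether these regions act on the genes around them was not tested. The share of members with a CTCF match was 3.10% in the long neuronal list (21 of 678) and 0.749% in the cardiac transcription factor list (2 of 267), against 1.98% of all members.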
